A study of Mus musculus with 2 samples.

Results

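The fibulins are a family of secreted glycoproteins of the extracellular matrix, and 5 of their genes were described here: Fbln1, Fbln2, Fbln5, Efemp1 (which encodes fibulin-3) and Efemp2 (which encodes fibulin-4). They were chosen by symbol from the 31053 genes of the count matrices, with earlier results of these data known, and all 5 were found in both libraries. The matrices come from non-cardiomyocytes of hearts of male C57BL6/J wildtype mice on day 20 after TAC (transverse aortic constriction, in which a narrowed aorta puts a pressure load on the left ventricle) or after sham surgery; ages are not given in the labels. There was 1 library per group, and the labels do not say how many hearts a library holds; differences are therefore given with counting error only, unreplicated and untested. Viable cells were sorted after cardiomyocytes had settled out, and captured in droplets with a 3′ chemistry that counts RNA molecules by unique molecular identifiers (UMIs).

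Fibulins are built from calcium-binding EGF-like repeats and a shared carboxy-terminal module, and they link other matrix molecules to each other. Fibulin-4 and fibulin-5 are needed for the assembly of elastic fibres in mice, where they bring tropoelastin together with lysyl oxidases on a microfibril scaffold. Fibulin-1 and fibulin-2 are larger proteins that also bind fibronectin, nidogen and versican, and in the heart fibulin-2 is known from the endocardial cushions and the vessel wall. Fibroblasts are the main source of such matrix proteins among the non-cardiomyocytes.

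The genes lie on 5 chromosomes of the mm10 build. Fbln1 spans chr15:85205949-85286535 on the plus strand, Fbln2 spans chr6:91212455-91272540 on the plus strand, and Fbln5 spans chr12:101746565-101819055 on the minus strand. Efemp1 spans chr11:28853204-28926743 on the plus strand. Efemp2 spans chr19:5473954-5482517 on the plus strand and is overlapped by Mus81 on the other strand. Mus81 stood at 14.0 CPM in TAC and 14.3 CPM in Sham fibroblasts, and its part in the Efemp2 values was not tested.

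The promoters of 3 members are shown because these members differed most between the libraries in fibroblasts: Fbln1 was higher in TAC, and Fbln5 and Efemp1 were lower. Each sequence is from RefSeq on GRCm38.p6 and runs 5′ to 3′ on the strand of the gene. It holds 250 bases before the RefSeq start and 50 bases from it, and capitals mark the motifs found. For Fbln5 the RefSeq start lies 64 bases from the start of the gene span given above.
Fbln1, chr15:85205699-85205998, plus strand: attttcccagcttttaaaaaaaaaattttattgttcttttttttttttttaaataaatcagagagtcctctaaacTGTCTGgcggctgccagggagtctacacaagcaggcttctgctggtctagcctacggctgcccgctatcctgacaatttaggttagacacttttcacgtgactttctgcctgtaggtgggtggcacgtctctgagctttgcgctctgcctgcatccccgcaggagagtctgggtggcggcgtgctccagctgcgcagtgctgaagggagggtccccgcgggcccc
Fbln5, chr12:101819070-101819369, minus strand: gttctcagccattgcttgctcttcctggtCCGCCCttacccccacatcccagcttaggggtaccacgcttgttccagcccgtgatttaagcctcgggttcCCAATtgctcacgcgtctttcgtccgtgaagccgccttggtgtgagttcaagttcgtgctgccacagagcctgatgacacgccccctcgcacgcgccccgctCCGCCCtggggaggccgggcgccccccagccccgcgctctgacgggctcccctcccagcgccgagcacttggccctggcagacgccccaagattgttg
Efemp1, chr11:28852955-28853254, plus strand: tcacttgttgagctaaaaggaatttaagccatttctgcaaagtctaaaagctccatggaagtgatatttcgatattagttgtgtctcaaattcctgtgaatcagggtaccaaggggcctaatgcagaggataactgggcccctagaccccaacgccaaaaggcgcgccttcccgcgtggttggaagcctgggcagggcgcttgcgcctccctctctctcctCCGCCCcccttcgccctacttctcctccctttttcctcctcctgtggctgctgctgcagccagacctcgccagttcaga
Promoters of all 5 members were matched by symbol and searched on both strands for 6 short motifs. Where a member had several entries, only that nearest the start of its gene span was searched. For Fbln2 the start used lies 309 bases from that of the span. The AP-1 motif (TGACTCA or TGAGTCA), the TEAD motif (CATTCC or GGAATG) and the TATA box (TATAAA or TTTATA) were in none of the 5 promoters; they are in 5.2%, 14.7% and 13.6% of the 32851 mouse promoters of the same length. The GC box (GGGCGG or CCGCCC), which 35.7% of promoters hold, was found in Fbln2, Fbln5, Efemp1 and Efemp2 and not in Fbln1. In Efemp1 it had 1 match, whose first base lies at position -29, with the RefSeq start as 0. A SMAD motif (CAGACA or TGTCTG; 21.0% of promoters) was found in Fbln1, at position -175, and in no other member. A CCAAT box (CCAAT or ATTGG; 37.4% of promoters) was found in Fbln5, at position -150, and in no other member. Such letter matches describe the windows and do not show binding.

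The TAC library held 8901 barcodes and 96003109 UMIs, against 8426 barcodes and 42490230 UMIs in the Sham library, and 15 barcodes occurred in both. After filtering, 7854 TAC and 7894 Sham cells were kept, with a median of 11158 and 4881.5 UMIs per cell. Cells were assigned to classes by fixed marker genes that hold no fibulin, after each cell had been drawn down to 1000 UMIs so that depth did not set its class. Fibroblasts were 5394 TAC and 6020 Sham cells, macrophages 861 and 1100, blood endothelial cells 588 and 128, and lymphatic endothelial cells 278 and 66. These 4 classes, with at least 50 cells in each library, were compared. The fibroblast class carried all 9 fibroblast markers above 50 CPM in the TAC library. Levels are UMIs summed over the cells of a class per 1e6 UMIs of that class (CPM); intervals are 95% and cover counting error only. Since a 3′ count is not set per length here, levels are compared between classes and libraries and not between genes.

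In fibroblasts the family did not move together. Fbln1, Fbln2 and Efemp2 were higher in the TAC library, and Fbln5 and Efemp1 were lower. Efemp1 was the only member that differed by 2-fold or more, and it was lower by 11.0-fold over all fibroblasts, and by 7.20-fold with 3 fibroblast subsets, described further on, weighted by their shares in the Sham library. Of the 8808 genes with at least 10 CPM in fibroblasts, 3.02% were at least 2-fold higher and 2.51% at least 2-fold lower in TAC, 5.53% in all, and the median log2 ratio of these genes was -0.06.

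Efemp1 encodes a short fibulin that binds TIMP3, an inhibitor of metalloproteinases. It stood at 36.7 CPM in TAC fibroblasts (35.3 to 38.2; 2432 UMIs), against 403 CPM in Sham fibroblasts (396 to 410; 12513 UMIs). The ratio was 0.0910 (0.0871 to 0.0950), a log2 ratio of -3.42. With every fibroblast drawn down to 3000 UMIs, 8.70% of 5231 TAC cells held an Efemp1 UMI, against 51.8% of 5515 Sham cells. The lower level was thus seen as fewer cells with a UMI and as fewer UMIs in those cells. Of the 455 TAC cells with an Efemp1 UMI, 376 held 1, 3 held 5 to 9 and 0 held 10 or more. Of the 2856 such Sham cells, 1193 held 1, 271 held 5 to 9 and 12 held 10 or more.

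Fbln5 encodes fibulin-5, which binds tropoelastin, LOXL1 and integrins. It stood at 310 CPM in TAC fibroblasts (306 to 314), against 482 CPM in Sham fibroblasts (475 to 490), a ratio of 0.643 (0.629 to 0.657). At 3000 UMIs, 51.7% of TAC fibroblasts and 68.3% of Sham fibroblasts held a UMI. Without drawing cells down to a common depth the order of the shares turned round, 86.0% of TAC and 80.1% of Sham fibroblasts, while the median depth was 12130 UMIs in TAC and 5005 UMIs in Sham fibroblasts. The share at unequal depth therefore went against the CPM and gives no order.

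Efemp2 encodes fibulin-4, which binds lysyl oxidase and tropoelastin. It stood at 160 CPM in TAC fibroblasts (157 to 164), against 131 CPM in Sham fibroblasts (127 to 135), a ratio of 1.23 (1.18 to 1.27). At 3000 UMIs, 36.8% of TAC and 31.9% of Sham fibroblasts held a UMI. No Sham fibroblast held more than 4 at this depth, and no TAC fibroblast more than 5.

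Fbln1 encodes fibulin-1, which binds fibronectin and versican and acts as a cofactor of ADAMTS1. It stood at 2643 CPM in TAC fibroblasts (2631 to 2655), against 1658 CPM in Sham fibroblasts (1644 to 1672), a ratio of 1.59 (1.58 to 1.61). Nearly every fibroblast held Fbln1 in both libraries, 94.4% of TAC and 93.5% of Sham cells at 3000 UMIs. The difference lay in the amount per cell, with a median of 7 UMIs in TAC and 4 UMIs in Sham cells, and 34.7% of TAC cells but 11.2% of Sham cells with 10 or more.

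Fbln2 encodes fibulin-2, which binds nidogen and versican. It stood at 1460 CPM in TAC fibroblasts (1451 to 1469), against 1202 CPM in Sham fibroblasts (1190 to 1214), a ratio of 1.21 (1.20 to 1.23). At 3000 UMIs, 93.2% of TAC and 87.7% of Sham fibroblasts held a UMI, with a median of 4 UMIs in TAC and 3 UMIs in Sham cells. Across single fibroblasts the UMI counts of Fbln1 and Fbln2 were weakly and inversely related (Pearson r = -0.17 over 5231 TAC cells and -0.14 over 5515 Sham cells), and every other pair of members lay between -0.05 and 0.04; in such sparse counts these values are given as a description.

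**Figure D1:**
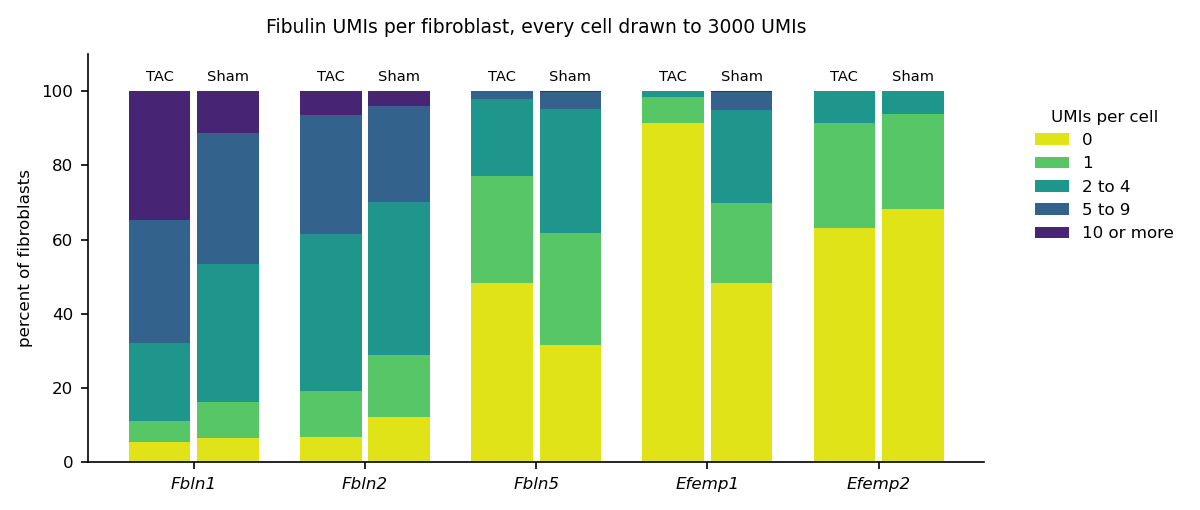
Share of fibroblasts (vertical axis, percent) by the number of UMIs of each fibulin they held, with every cell drawn down to 3000 UMIs (5231 TAC and 5515 Sham cells; colours are UMI bands). Fbln1 shows more TAC cells in the band of 10 or more (34.7% against 11.2% in Sham), and Efemp1 shows more TAC cells at 0 (91.3% against 48.2% in Sham).

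Cells of other classes give a measure of free RNA, which reaches droplets of every type. At 1000 UMIs per cell, Fbln1 was seen in 81.0% of TAC and 72.8% of Sham fibroblasts, and in 3.02% of TAC and 1.36% of Sham macrophages, whose median depths were 9339 and 4578 UMIs. Efemp1 was seen in 2.84% of TAC and 28.1% of Sham fibroblasts, and in 0.116% of TAC and 0.182% of Sham macrophages. The remaining Efemp1 signal of TAC fibroblasts was thus above the level in macrophages of the same library. In small classes of that library, 2 of 35 B cells (5.71%, 0.70 to 19.2) and 0 of 35 T or NK cells held an Efemp1 UMI. These cells are too few to set an order against fibroblasts.

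The fibroblasts were split by genes known to mark states of the class, again at 3000 UMIs per cell: those with at least 2 UMIs of Comp and Thbs4 together (902 TAC and 26 Sham cells), those of the rest with a Postn UMI (2648 and 200 cells), and those with neither (1681 and 5289 cells). Comp and Thbs4 encode matrix proteins, and Postn encodes periostin, a marker of activated fibroblasts. The split separates the libraries as well, so each subset was compared with its own counterpart. The cells nearest the limits were many: 391 TAC and 40 Sham cells held exactly 1 UMI of Comp and Thbs4, and 897 TAC and 99 Sham cells of the Postn subset held exactly 1 Postn UMI.

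Efemp1 was lower in TAC in each of the 3 subsets. In cells with neither marker it stood at 57.6 CPM in TAC (54.3 to 61.1) and 415 CPM in Sham (407 to 422). In Postn cells it stood at 32.2 CPM in TAC (30.3 to 34.1) and 223 CPM in Sham (198 to 250), and in Comp or Thbs4 cells at 16.0 CPM in TAC (13.8 to 18.5) and 131 CPM in Sham (76.5 to 210). The order of the subsets was the same in both libraries, with the highest level in cells with neither marker and the lowest in Comp or Thbs4 cells, and in neither library did the intervals of the Postn cells and of the cells with neither marker overlap. In Sham the intervals of the Postn cells and of the Comp or Thbs4 cells did.

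Fbln1 was higher in TAC in cells with neither marker, at 2875 CPM against 1649 CPM in Sham, a ratio of 1.74 (1.72 to 1.77). In Postn cells it stood at 2318 CPM in TAC and 1152 CPM in Sham, a ratio of 2.01 (1.91 to 2.12). In Comp or Thbs4 cells it stood at 3238 CPM in TAC and 2942 CPM in Sham, and the interval of the ratio, 0.995 to 1.22, included 1. The Sham cells of that subset, 26 in number, carried a level far above the other Sham fibroblasts.

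Fbln2 differed in direction between 2 of the subsets. In cells with neither marker it stood at 1282 CPM in TAC (1266 to 1298) and 1164 CPM in Sham (1152 to 1177). In Postn cells it stood at 1657 CPM in TAC (1643 to 1670) and 2132 CPM in Sham (2054 to 2213), lower in TAC, although Postn cells had the highest Fbln2 level of the 3 subsets in each library. In Comp or Thbs4 cells it stood at 1191 CPM in TAC and 1320 CPM in Sham, and the interval of the ratio, 0.776 to 1.06, included 1. The higher TAC level in cells with neither marker was not seen in those of them with 5 or more UMIs of Pi16 and Dpp4, where the ratio was 0.979 (0.952 to 1.01). The difference between the subsets was not tested.

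Fbln5 was lower in TAC in cells with neither marker, at 313 CPM against 489 CPM in Sham, and in Postn cells, at 270 CPM against 352 CPM in Sham. In Comp or Thbs4 cells it stood at 426 CPM in TAC and 456 CPM in Sham, and the interval of the ratio, 0.724 to 1.23, included 1. Efemp2 had ratios of 1.18 (1.12 to 1.24) in cells with neither marker, 1.25 (1.07 to 1.46) in Postn cells and 1.22 (0.747 to 2.13) in Comp or Thbs4 cells, where 16 Sham UMIs gave an interval that included 1.

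In the Sham library 5289 of 5515 fibroblasts had neither marker. Weighting the subset levels by the Sham shares therefore gave nearly the levels of that subset, with the direction of each member as over all fibroblasts. Efemp1 then stood at 56.5 CPM in TAC and 407 CPM in Sham, Fbln5 at 312 and 484 CPM, Fbln1 at 2857 and 1637 CPM, Fbln2 at 1295 and 1200 CPM, and Efemp2 at 155 and 131 CPM. The ratio of Efemp1 was then 0.139, against 0.0910 over all fibroblasts. The difference in Fbln2 was smaller than over all fibroblasts, and that in Fbln1 was larger. Levels at the TAC shares were not computed, so the direction of Fbln2, lower in TAC in Postn cells, is not settled by this weighting.

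**Figure D2:**
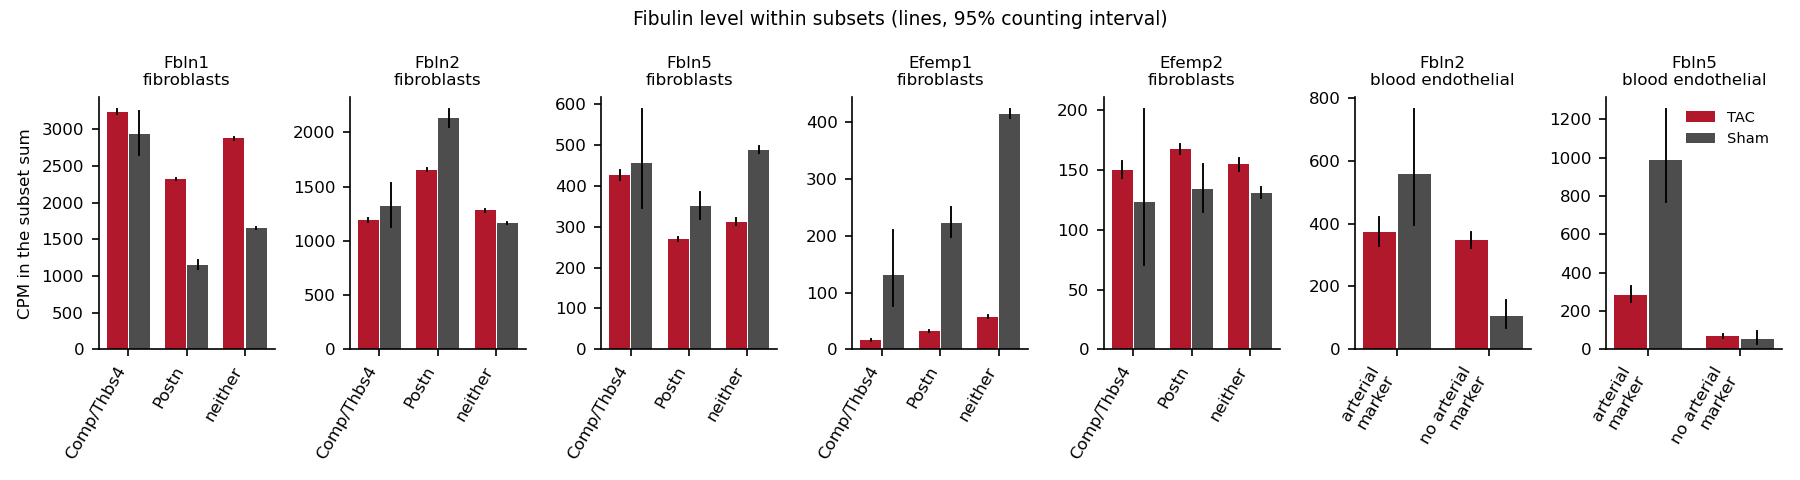
Level of each fibulin (vertical axis, CPM from 0) in the 3 fibroblast subsets and, for Fbln2 and Fbln5, in blood endothelial cells with or without arterial markers; bars are TAC and Sham sums and lines the 95% counting interval. Efemp1 is lower in TAC in each fibroblast subset, and Fbln2 is lower in TAC in Postn cells (1657 against 2132 CPM) and higher in cells with neither marker (1282 against 1164 CPM).

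A second split used Pi16 and Dpp4, which mark adventitial fibroblasts. With 5 or more UMIs of both genes together, Fbln2 stood at 1764 CPM in TAC and 1679 CPM in Sham cells. With 1 to 4 UMIs it stood at 1366 and 1230 CPM, and with 0 UMIs at 1037 and 731 CPM. Fbln2 thus followed the adventitial markers in both libraries, and its ratio was 1.05 (1.03 to 1.07) in the highest band and 1.42 (1.37 to 1.46) in the lowest. Fbln1 ran the other way, at 2500 CPM in TAC and 1516 CPM in Sham in the highest band, and 3064 and 1765 CPM in the lowest. Efemp1 had its Sham maximum in the highest band, at 34.6 CPM in TAC and 517 CPM in Sham, so this band held the lowest Efemp1 ratio, 0.0669 (0.0621 to 0.0719).

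Fibroblast clusters, made from the expression of all cells without the 5 fibulins, gave a second view. There were 6 clusters with at least 50 TAC fibroblasts and 7 with at least 50 Sham fibroblasts. Efemp1 ranged from 15.4 to 101 CPM over the TAC clusters and from 106 to 582 CPM over the Sham clusters, so these ranges did not overlap. The ranges of the other 4 members overlapped: Fbln1 lay between 1879 and 3324 CPM in TAC and between 1189 and 2650 CPM in Sham clusters, and Fbln5 between 143 and 403 CPM in TAC and between 340 and 665 CPM in Sham clusters. The Efemp1 maximum of each library, 101 CPM in TAC and 582 CPM in Sham, lay in the same cluster, which was led by Efhd1, Tmem100 and Sema3c and also held Cd248 and Ly6c1. The TAC minimum lay in the cluster led by Comp and Thbs4, which had the highest Fbln1 level of all, 3324 CPM. In each of the 4 clusters with cells of both libraries, Efemp1 and Fbln5 were lower and Fbln1 higher in TAC. Fbln2 differed between them. It was higher in TAC in the clusters led by Efhd1 (2716 against 1816 CPM) and by Cxcl10 (1409 against 1111 CPM). It was lower in those led by Cst6 (1766 against 1799 CPM) and by Ccl11 and Blnk (1053 against 1315 CPM). Efemp2 was lower in TAC in the last of these (120.9 against 124.2 CPM) and higher in the others.

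Outside fibroblasts the members parted by class. Of the UMIs of each member in all kept cells, fibroblasts held 98.4% in TAC and 96.9% in Sham for Fbln1, 95.6% and 96.8% for Fbln2, 91.1% and 95.8% for Fbln5, 86.0% and 96.6% for Efemp1, and 94.1% and 93.4% for Efemp2. The level of free RNA was read from 4 other genes of fibroblasts (Mmp2, Pcolce, Clec3b and Serpinf1), whose median level in macrophages was 1.09% of the fibroblast level in TAC and 1.57% in Sham. In macrophages Fbln1 reached 1.01% of its fibroblast level in TAC and 1.47% in Sham, Fbln2 1.14% and 1.19%, and Fbln5 1.77% and 1.69%, all near that measure. Efemp2 reached 8.62% in TAC and 10.7% in Sham macrophages, 13.8 and 14.0 CPM, and Serpinf1 also lay above the median of the 4 genes there, at 6.01% and 19.7%.

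**Figure D3:**
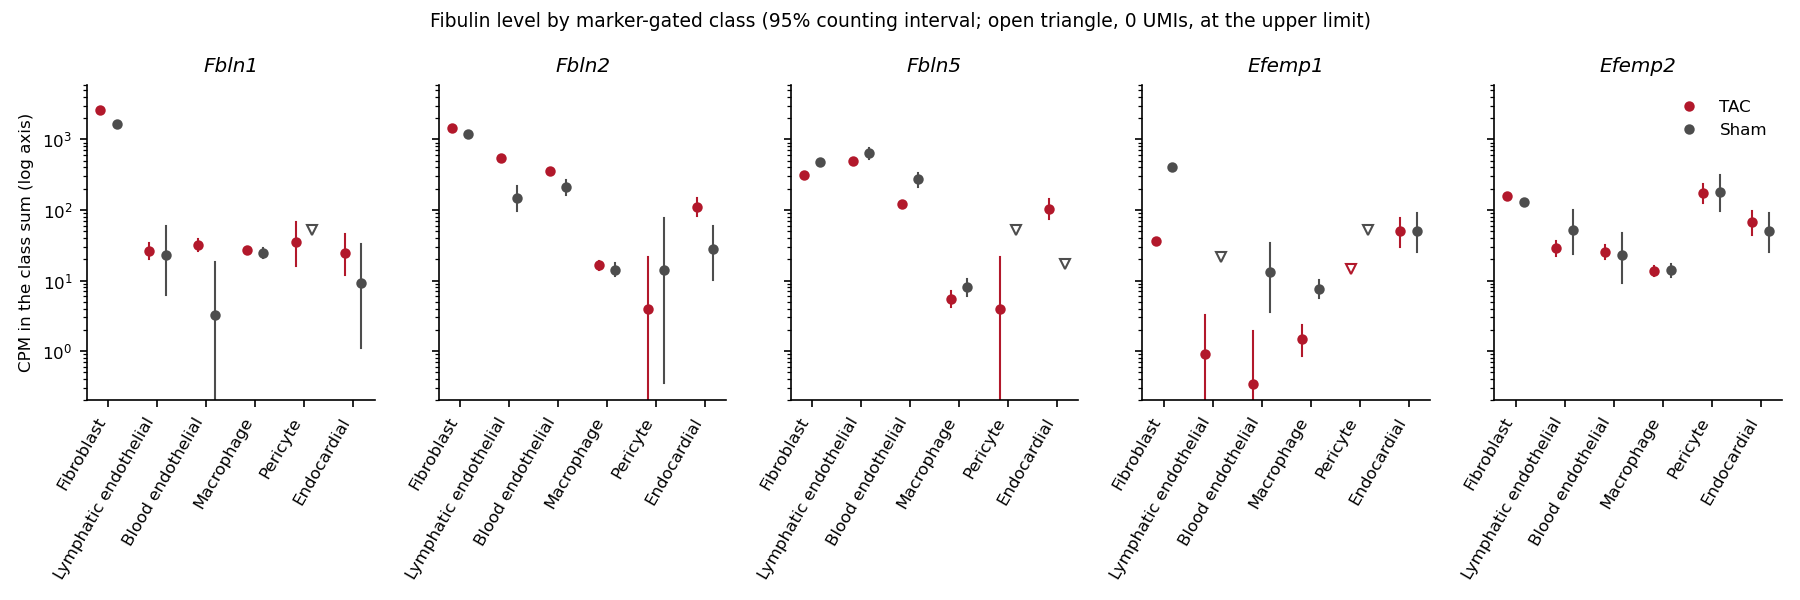
Level of each fibulin (vertical axis, CPM on a log axis) in 6 marker-gated classes; points are TAC and Sham sums, lines the 95% counting interval, and open triangles the upper limit where 0 UMIs were counted. Fbln1 is high in fibroblasts alone among these classes, Fbln5 is higher in lymphatic endothelial cells than in fibroblasts, and Efemp2 is as high in pericytes as in fibroblasts; pericytes (60 TAC and 33 Sham cells) and endocardial cells (40 and 61) were too few to be compared.

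Lymphatic endothelial cells line the lymph vessels and anchor to elastic fibres. Fbln5 stood at 487 CPM in TAC (459 to 517; 1080 UMIs), against 635 CPM in Sham (522 to 766; 110 UMIs), which is 157% of the fibroblast level in TAC and 132% in Sham. The ratio of TAC to Sham was 0.767 (0.630 to 0.942), the direction seen in fibroblasts. With each cell at 1000 UMIs, 38.85% of TAC cells (33.09 to 44.85) and 42.42% of Sham cells (30.34 to 55.21) held a UMI, and these intervals overlapped. The log2 ratio of Fbln5, -0.38 here, was -0.18 with scaling by the median ratio over genes. Lymphatic endothelial cells were 3.54% of TAC and 0.836% of Sham cells, and carried 4.79% of all Fbln5 UMIs in TAC, against 0.705% in Sham. The parts of cell number, depth and Fbln5 level in these shares were not tested.

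Fbln2 in lymphatic endothelial cells stood at 545 CPM in TAC (515 to 577; 1209 UMIs), against 150 CPM in Sham (98.1 to 220; 26 UMIs). The ratio was 3.63 (2.47 to 5.58), a log2 ratio of 1.85. Of the 9269 genes with at least 10 CPM in this class, 10.9% were at least 2-fold higher and 10.2% at least 2-fold lower in TAC, so that a difference of this size was more common here than in fibroblasts. With each cell at 1000 UMIs, 32.0% of TAC cells (26.6 to 37.9) and 18.2% of Sham cells (9.76 to 29.6) held a UMI, and these intervals overlapped. Haemoglobin RNA summed to 3503 CPM in TAC and 191 CPM in Sham lymphatic endothelial cells. With mitochondrial and haemoglobin UMIs left out of the scaling, the log2 ratio of Fbln2 was 1.87. Any other part of haemoglobin RNA in the Fbln2 values was not tested. The Sham value rests on 66 cells with a median depth of 2597 UMIs, against 7850 UMIs in TAC.

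The other members were below their fibroblast level in lymphatic endothelial cells. Fbln1 stood at 26.6 CPM in TAC and 23.1 CPM in Sham, which is 1.01% and 1.39% of its fibroblast level and near the measure of free RNA. Efemp2 stood at 28.9 CPM in TAC (22.2 to 36.9) and 52.0 CPM in Sham (23.8 to 98.7), or 18.0% and 39.8% of its fibroblast level, with a ratio whose interval, 0.275 to 1.27, included 1. Efemp1 had 2 UMIs in TAC and 0 in Sham, too few for a level.

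In blood endothelial cells Fbln5 stood at 120 CPM in TAC (108 to 133; 348 UMIs), against 271 CPM in Sham (215 to 336; 82 UMIs). The ratio was 0.443 (0.348 to 0.571), a log2 ratio of -1.17. Fbln2 stood at 353 CPM in TAC (332 to 375; 1024 UMIs), against 211 CPM in Sham (163 to 270; 64 UMIs), a ratio of 1.67 (1.30 to 2.19), but its log2 ratio, 0.74 here, was 0.04 with every cell at 1000 UMIs and -0.13 with a stricter gate. Of the 9103 genes with at least 10 CPM in this class, 7.62% were at least 2-fold higher and 7.65% at least 2-fold lower in TAC.

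Of the other 3 members, Fbln1 and Efemp1 were near the free RNA or few in UMIs in blood endothelial cells. Fbln1 had 93 UMIs in TAC and 1 in Sham, at 32.1 and 3.30 CPM, or 1.21% and 0.199% of its fibroblast level, and no difference is read from it. Efemp1 had 1 UMI in TAC and 4 in Sham. Efemp2 stood at 25.5 CPM in TAC (74 UMIs) and 23.1 CPM in Sham (7 UMIs). This is 15.9% and 17.7% of its fibroblast level, above the 4 genes used to read free RNA, which reached at most 4.22% in TAC and 3.70% in Sham cells of this class. The ratio had an interval, 0.510 to 2.84, that included 1.

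Arterial endothelial cells were marked, by genes picked after the fibulin values had been seen, as blood endothelial cells with a UMI of Gja4, Gja5, Hey1, Sox17 or Bmx at 1000 UMIs per cell. They were 154 of 588 TAC cells (26.2%) and 37 of 128 Sham cells (28.9%), with overlapping intervals of 22.7 to 29.9% and 21.2 to 37.6%. Fbln5 stood at 286 CPM in TAC (247 to 329; 195 UMIs) and 988 CPM in Sham arterial cells (769 to 1251; 69 UMIs), a ratio of 0.289 (0.219 to 0.386). In the cells without an arterial UMI it stood at 69.0 CPM in TAC (58.5 to 80.8) and 55.7 CPM in Sham (29.7 to 95.3), with overlapping intervals. In each library Fbln5 was thus higher in the cells with arterial markers. At 1000 UMIs per cell the ratio was 0.303 (0.194 to 0.477) in the arterial cells and 0.536 (0.239 to 1.32) in the others, where it had been 1.24 without drawing cells down, so no direction is read for the cells without an arterial UMI. With 2 or more arterial UMIs required, 58 TAC cells (9.86%) and 23 Sham cells (18.0%) remained, so more of the TAC arterial cells held exactly 1. The ratio was then 0.396 (0.287 to 0.552), and 0.510 (0.303 to 0.867) at 1000 UMIs per cell. In these cells the endocardial marker list summed to 632.5 CPM in TAC and 146.3 CPM in Sham. The part of these differences in the Fbln5 values was not tested.

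Fbln2 behaved otherwise in the same cells. In arterial cells it stood at 372 CPM in TAC (328 to 421) and 559 CPM in Sham (397 to 764), a ratio of 0.666 (0.474 to 0.959). At 1000 UMIs per cell this ratio was 0.733 (0.436 to 1.28), and with 2 or more arterial UMIs required it was 0.726 (0.484 to 1.13), and both of these intervals included 1. In the cells without an arterial UMI it stood at 347 CPM in TAC (323 to 372) and 107 CPM in Sham (69.3 to 158), a ratio of 3.24 (2.18 to 5.04), and of 2.50 (1.31 to 5.34) at 1000 UMIs per cell. Those Sham cells carried more RNA of the endocardial marker list, 1067 CPM summed over its genes against 120 CPM in TAC. Haemoglobin RNA summed to 6717 CPM in TAC and 139 CPM in Sham over all blood endothelial cells. Over all these cells, the log2 ratio of Fbln2 was 0.76 without mitochondrial and haemoglobin UMIs in the scaling, against 0.74 with them. In the subsets the part of these differences in the Fbln2 values was not tested.

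**Figure D4:**
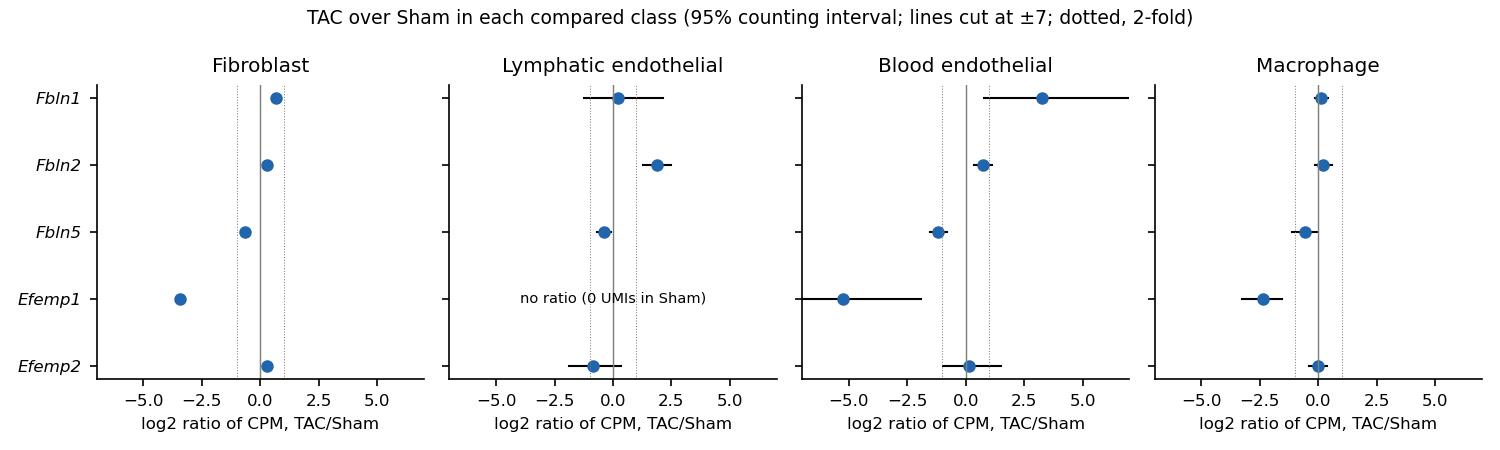
Log2 ratio of CPM, TAC over Sham (horizontal axis), of each fibulin in the 4 compared classes; points are ratios of class sums, lines the 95% counting interval, and dotted lines mark 2-fold. Efemp1 lies farthest from 0 in fibroblasts, Fbln2 lies past 2-fold in lymphatic endothelial cells, and Fbln5 lies below 0 in all 4 classes, in macrophages at the level of free RNA; the long lines in endothelial cells belong to members with few UMIs.

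Macrophage levels of all 5 members were low, and Efemp1 was lower in TAC macrophages too, with 17 UMIs (1.48 CPM) in TAC against 51 UMIs (7.70 CPM) in Sham. This has the direction of the fibroblast level, and both macrophage values were a few percent of it, 4.03% in TAC and 1.91% in Sham. Of the 8331 genes with at least 10 CPM in macrophages, 3.08% were at least 2-fold higher and 1.67% at least 2-fold lower in TAC, and Efemp1 did not reach 10 CPM.

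Small classes held members at fibroblast level, and are given as values with no comparison of the libraries. In pericytes, the mural cells of capillaries, Efemp2 stood at 172 CPM in 60 TAC cells (125 to 232; 44 UMIs) and 182 CPM in 33 Sham cells (97.0 to 312; 13 UMIs), which is 108% and 139% of its fibroblast level. Pericytes held 1 UMI of Fbln5 and 1 of Fbln2 in TAC, and 0 and 1 in Sham. In endocardial cells, which line the heart chambers, Fbln5 had 42 UMIs in 12 of 40 TAC cells (104 CPM), against 0 UMIs in 61 Sham cells, which allows a share of cells with a UMI of up to 4.92% at their depth and sets no limit on cells that express the gene. Median depth there was 9449 UMIs in TAC and 3436 UMIs in Sham. Efemp1 stood at 49.7 CPM in TAC (30.4 to 76.8) and 50.5 CPM in Sham (25.2 to 90.4) endocardial cells, on 20 and 11 UMIs.

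The cells richest in Efemp1 in the TAC library were mostly of another kind than fibroblasts. Of the 10 TAC cells with the most Efemp1 UMIs, 7 belonged to a cluster that expressed the mesothelial markers, mesothelium being the outer lining of the heart, and the highest of them held 71 UMIs, against 20 UMIs in the highest TAC fibroblast. In the Sham library all 10 such cells were fibroblasts, and the highest held 27 UMIs. These counts were read without a common depth. Cells that passed the mesothelial gate, 3 in each library, had a median depth of 22690 UMIs in TAC and 2624 UMIs in Sham. The cluster held 9 TAC and 4 Sham cells, with the mesothelial marker Msln at 2363 CPM in TAC and 2078 CPM in Sham and Upk3b at 1488 and 1536 CPM. Efemp1 stood in it at 1695 CPM in TAC (1505 to 1903; 287 UMIs) and 1807 CPM in Sham (1104 to 2791; 20 UMIs), and Fbln1 at 1801 CPM in TAC and 1717 CPM in Sham. These 9 cells carried 10.2% of all Efemp1 UMIs of the TAC library, while the 4 Sham cells carried 0.154%, again without a common depth. For each of these members the intervals of the libraries overlapped, and the cells are few. Of the 9 TAC cells, 3 passed the mesothelial gate, 4 carried markers of more than 1 class and 1 passed the fibroblast gate.

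A list of 54 genes of elastic fibres, fibulin ligands and related matrix genes gives the setting in fibroblasts. It was chosen with earlier results of these data known, so its shares are a description. Of these, 46 reached 10 CPM in either library; 15 were at least 2-fold higher in TAC (32.6%) and 3 at least 2-fold lower (6.52%), against 3.02% and 2.51% of all genes, and the median log2 ratio was 0.69, against -0.06 for all genes. The lysyl oxidase Lox, which crosslinks elastin, stood at 155 CPM in TAC and 41.9 CPM in Sham, and Loxl1 at 815 and 404 CPM. Elastin itself (Eln) stood at 542 CPM in TAC and 280 CPM in Sham, and fibrillin-1 (Fbn1), the main microfibril protein, at 535 and 289 CPM. These 4 genes were thus higher in the TAC library, as was Efemp2 by a smaller ratio, while Fbln5 was lower. Not every microfibril gene was higher in TAC, with Ltbp1 at 92.1 CPM in TAC and 109 CPM in Sham.

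By log2(CPM + 1), the largest ratios of the list belonged to the microfibril-associated genes Ltbp2 (131 CPM in TAC and 9.19 CPM in Sham) and Mfap4 (1114 and 133 CPM), followed by Fbln7, a short fibulin outside the 5 (20.6 and 1.80 CPM), and the growth factor gene Tgfb1 (155 and 35.6 CPM). Mfap5 stood at 2517 CPM in TAC and 1070 CPM in Sham, Ltbp4 at 1985 and 1193 CPM, and Sod3, an extracellular superoxide dismutase, at 274 and 155 CPM. Nid1, the basement membrane partner of fibulin-1 and fibulin-2, hardly differed, at 915 CPM in TAC and 951 CPM in Sham. Versican (Vcan), which fibulin-1 and fibulin-2 bind, stood at 283 and 184 CPM.

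The lowest ratios were those of Emilin2 (21.7 CPM in TAC and 72.7 CPM in Sham), the versican-cleaving proteases Adamts1 (140 and 402 CPM) and Adamts5 (414 and 937 CPM), and Hmcn2 (45.5 and 81.1 CPM). Adamts1, for which fibulin-1 is a cofactor, was thus lower where Fbln1 was higher. Adamts4, also on the list, went the other way, at 23.3 CPM in TAC and 10.9 CPM in Sham. Timp3, whose product binds fibulin-3, stood at 368 CPM in TAC and 618 CPM in Sham, lower like Efemp1 but by a smaller ratio, 0.596. No measured gene of the list had as low a ratio as Efemp1. Hmcn1, a hemicentin with the fibulin module, was under 2.3 CPM in fibroblasts of each library but stood at 403 CPM in TAC (162 UMIs) and 165 CPM in Sham (36 UMIs) endocardial cells.

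**Figure D5:**
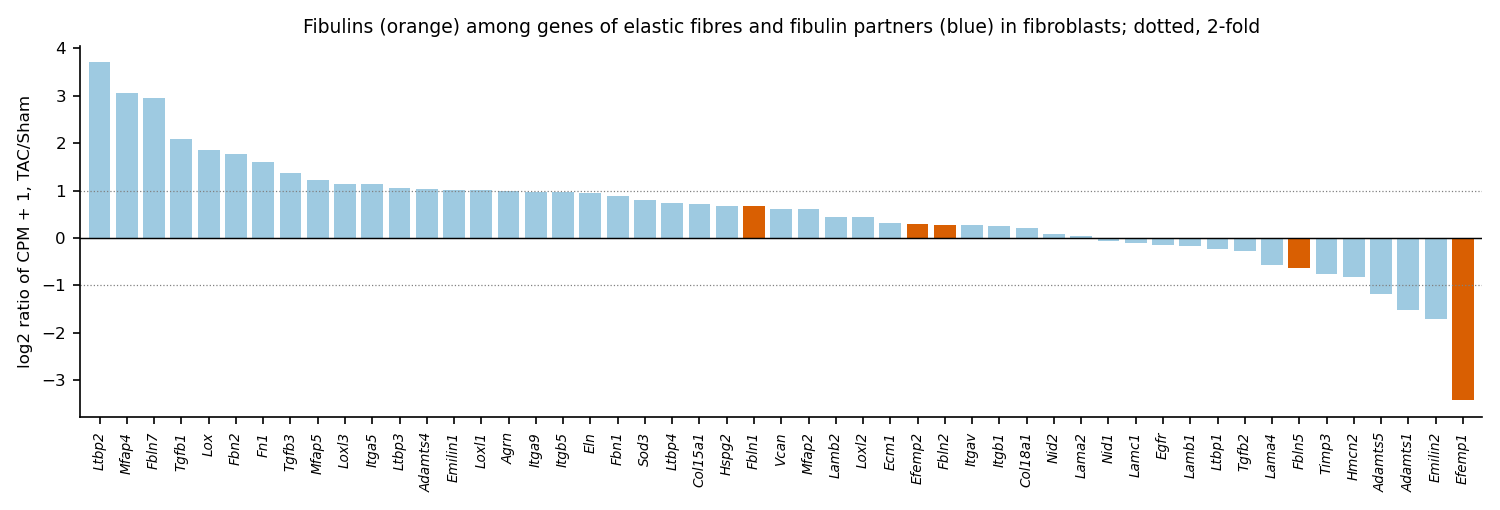
Log2 ratio of CPM + 1, TAC over Sham (vertical axis), in fibroblasts for the 46 listed partner genes at 10 CPM or more (blue) and the 5 fibulins (orange), in order of the ratio; dotted lines mark 2-fold. Efemp1 lies at the low end at -3.42, below Emilin2 at -1.70, and Fbln1 lies near the middle of the list at 0.67.

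By count alone, the list also held more genes higher than lower in TAC in the other classes. In macrophages 8 of 25 measured genes were at least 2-fold higher and 2 at least 2-fold lower, in blood endothelial cells 10 and 1 of 39, and in lymphatic endothelial cells 7 and 0 of 36. The shares higher and lower were 32.0% and 8.0% in macrophages, against 3.08% and 1.67% of all genes, 25.6% and 2.56% in blood endothelial cells, against 7.62% and 7.65%, and 19.4% and 0% in lymphatic endothelial cells, against 10.9% and 10.2%. Some of the macrophage genes stood near the level of free RNA, such as Eln at 2.28% of its fibroblast level in TAC and 1.62% in Sham, and Ltbp4 at 2.09% and 1.64%. The endothelial counts rest partly on genes with 0 or 1 Sham UMIs that reached 10 CPM in TAC alone. In blood endothelial cells these included Mfap4 (43 TAC and 0 Sham UMIs), Itgb3 (34 and 0) and Adamts4 (49 and 1). In lymphatic endothelial cells they included Mfap2 (56 and 0), Mfap4 (26 and 0) and Itgb3 (76 and 1). No direction of the list is therefore read for endothelial cells.

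Genes with a pattern like each member were named from 8 sums (4 classes in 2 libraries) of 11278 genes by Pearson's r of log2(CPM + 10). The points share 2 libraries and the main contrast between fibroblasts and other classes. Efemp1 was most like Adgrg2 (r = 0.99), Inmt, Sema3c, Vit and Ces1d, and Fbln1 was most like C1s1 (0.995), Tpm2, 1810055G02Rik, Wisp2 and Bicc1. Fbln2 was most like Afap1 (0.99), Map1lc3a, Rbms2, Nid1 and Btrc, so that its ligand nidogen-1 was among its 5. Fbln5 was most like Slc25a4 (0.996), Purg, Zc2hc1a, Sntb2 and Esyt2, and Efemp2 was most like Numbl (0.997), Erlec1, Plekhf1, Scarf2 and Sox5. Between members, r was highest for Fbln1 and Efemp2 (0.90) and lowest, at 0.31, for Fbln5 with Fbln1 and with Efemp1.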

How the data were processed

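The authors deposited 1 matrix of whole-number UMI counts per library, not normalized; per the file headers it was written by Cell Ranger 3.1.0. The submitters' processing notes name the mm10 build and Seurat, whose role they do not give here. The gene annotation is not given in the sources used here; 30934 of 31053 gene IDs matched GENCODE vM21, which gave positions. Cells were kept from 500 genes and 1000 UMIs upward and with at most 15% of UMIs from mitochondrial genes, which removed 901 TAC and 462 Sham barcodes, and Scrublet in Scanpy 1.11.5 (expected rate 7%) marked 146 TAC (1.82%) and 70 Sham (0.879%) doublets, which were removed. A cell joined 1 of 15 classes by its number of distinct class markers at 1000 UMIs (4 of 9 for fibroblasts, 3 of 8 for blood endothelial cells and macrophages, 2 of 6 for lymphatic endothelial cells) if it reached no other class, endothelial lists being allowed together. These limits were set after marker values, but no fibulin value, had been seen; 283 TAC and 162 Sham cells with markers of more than 1 class and 171 and 202 with none were left out of the classes. Cell names were rebuilt here, and a difference from the study may stem from that.

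UMIs were summed per class and library. Intervals at 95% are exact Poisson for levels, exact conditional for ratios and Clopper-Pearson for shares, and cover counting error only. Log2 ratios used CPM + 1; a count of 0 was bounded with a floor of 3. The computation of the ratios was run on simulated sums drawn from the Poisson model that the intervals assume. Such sums hold no spread between cells or libraries, so they are no test of the differences. Leiden clustering (igraph 0.11.9, resolution 1.0, without the fibulins) served as an alternative. The members, lists and markers were chosen with earlier results of these data known. Named genes were the members, 16 fixed partners and the 5 genes most like each member. The 4 largest ratios in each direction of the partner list were also named. Other genes were named as markers or cluster leaders, or from the partner list after its values had been seen.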

Additional observations from a re-analysis of the deposited data

Results flagged for a closer look

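Fbln2 had opposite directions in subsets of the same class, with both counting intervals off 1 in the sums without a common depth. In blood endothelial cells its ratio of TAC to Sham was 3.24 without an arterial UMI and 0.666 with 1 or more, but the second was 0.733 (0.436 to 1.28) at 1000 UMIs per cell and 0.726 (0.484 to 1.13) with 2 or more arterial UMIs, and both of these intervals include 1. In fibroblasts it was 1.10 in cells with neither Postn nor Comp or Thbs4 and 0.777 in Postn cells. With 1 library per group the difference between subsets was not tested, and the subsets were drawn from the same cells as the values.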

How the results depend on the processing

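In fibroblasts all 5 members kept their direction under each alternative run, and Efemp1 was the only one past 2-fold in each. With scaling by the median ratio over genes, which shifts all fibroblast log2 ratios by 0.06, the log2 ratios were 0.74 for Fbln1, 0.34 for Fbln2, -0.57 for Fbln5, -3.36 for Efemp1 and 0.36 for Efemp2. With cells thinned to 1000 UMIs they were 0.64 for Fbln1, 0.24 for Fbln2, -0.69 for Fbln5 and -3.67 for Efemp1, and as means over cells 0.65 for Fbln1 and 0.26 for Fbln2. Efemp1 was -3.15 with a pseudocount of 10 CPM. Without Postn, Comp or Thbs4 cells, an alternative chosen after seeing the data, they were 0.80 for Fbln1, 0.14 for Fbln2, -2.83 for Efemp1 and 0.24 for Efemp2. Of 170 alternative ratios over the 4 classes, 136 lay within the counting interval of the reported value, 32 moved beyond it on the same side or from a value whose interval included 1, and 2 with an interval off 1 changed sign, both in blood endothelial cells: Fbln1 was -0.75 with clusters in place of gates and Fbln2 was -0.13 with the stricter gate; the cause was not tested. Another 11 ratios whose interval included 1 also changed sign, 7 in macrophages, 2 in blood and 2 in lymphatic endothelial cells, to values from -0.71 to 0.01. The same scaling shifts log2 ratios by 0.17 in blood and 0.20 in lymphatic endothelial cells. Fbln5 in blood endothelial cells ranged from -2.32 to -0.44. In lymphatic endothelial cells Fbln2 ranged from 1.32 to 2.05 and Fbln5 from -0.40 to -0.18. No paired analysis was possible because each group has 1 library, and for the same reason no library could be left out. Outside fibroblasts counting limits the ratios, since the Sham sums of Fbln2 and Fbln5 hold 26 to 110 UMIs in endothelial cells and 54 to 95 in macrophages.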
